A study of Mus musculus with 24 samples.

Results

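The thrombospondin family was followed through a mouse model of pressure overload combined with benzene inhalation. Its members were taken as the rows of the count table with the symbols Thbs1, Thbs2, Thbs3, Thbs4 and Comp, which gave 5 of the 25229 gene symbols in the table. The genes lie apart, on chromosomes 2 (Thbs1), 17 (Thbs2), 3 (Thbs3), 13 (Thbs4) and 8 (Comp). All 5 were among the 13571 genes expressed highly enough to be tested, and each had at least 10 counts in every library. The 24 libraries, 6 in each of 4 groups, were made from septum and left ventricle of C57BL/6 male mice. TAC/Benzene mice had transverse aortic constriction (TAC), in which a band narrows the aortic arch so that the heart pumps against a raised pressure, and then breathed 50 ppm benzene. TAC/Air mice had the same operation and breathed filtered air, Sham/Benzene mice had sham surgery and breathed benzene, and Sham/Air mice had sham surgery and breathed filtered air. Exposure started after 1 week of recovery and ran for 6 hours a day, 5 days a week, over 6 weeks. Every group was thus operated on before its exposure. The age of the mice, and whether a library held 1 heart, were not given in the sources used here, so the p-values speak of spread among libraries, which may be partly technical.

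Thrombospondins are large calcium-binding glycoproteins that cells secrete into the matrix around them, where they bridge matrix proteins, growth factors, proteases and cell surface receptors. They fall into a trimeric subgroup, thrombospondins 1 and 2, which carries procollagen-like and type 1 repeat domains, and a pentameric subgroup, thrombospondins 3, 4 and COMP (cartilage oligomeric matrix protein, also called thrombospondin 5), which lacks them. In the heart the family is best known from injury and overload: thrombospondin 1 is known to activate latent TGF-beta, thrombospondin 2 to affect matrix integrity and vessel growth, and thrombospondin 4 to be induced in loaded myocardium, where it also acts inside the endoplasmic reticulum through the stress sensor ATF6.

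Poly-A RNA was read as pairs of 150 bases, and total counts ran from 10016860 to 13724100 in TAC/Benzene, 10479981 to 13581729 in TAC/Air, 9396445 to 14632231 in Sham/Benzene and 4170660 to 12718494 in Sham/Air. The shallowest library, Sham/Air replicate 1, stood apart: its rank correlations with the rest were 0.852 to 0.913, while the rest correlated with each other at 0.963 to 0.996. Libraries also differed from their group means along the GC content of genes, with rank correlations between -0.761 and 0.785. In TAC/Air replicates 1 to 3 were at 0.556 to 0.623 and replicates 4 to 6 at -0.692 to -0.375. In Sham/Benzene replicates 1 to 3 were at -0.652 to -0.369 and replicates 4 to 6 at 0.54 to 0.663. In TAC/Benzene and Sham/Air the signs did not divide in that way. The 6 cardiomyocyte marker genes, which include Myh6 and Tnnt2, summed to 40210 to 47650 CPM in TAC/Benzene, 37100 to 48830 in TAC/Air, 52590 to 66510 in Sham/Benzene and 58150 to 84020 in Sham/Air, the highest sum of the 11 marker lists in every group. Of these 6 genes 4 were called lower with TAC in benzene and 5 in air, where 7.97% and 7.35% of all genes were called lower. The part of these 6 genes in the thrombospondin values below was not tested. Levels are CPM (each gene's reads scaled to a common library total) adjusted by TMM, a normalization for library composition, given as mean ± SD over n = 6 libraries per group. Log2 fold changes are given ± SE with p-values from edgeR's quasi-likelihood test, adjusted by the Benjamini-Hochberg method over all 13571 genes, and a gene was called at an adjusted p under 0.05. In whole tissue, more cells of a type and more RNA per cell cannot be told apart.

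Pressure overload raised 4 of the 5 members under both exposures. The pentameric members Thbs4 and Comp moved most, Thbs1 came next and Thbs3 moved least, while Thbs2 stood apart from the other members. Among all genes tested, 8.67% were called higher and 7.97% lower in TAC/Benzene against Sham/Benzene (16.6% in all), and 8.81% higher and 7.35% lower in TAC/Air against Sham/Air (16.2% in all). The median log2 fold change of the 5 members was 1.90 in benzene and 2.67 in air, and the median over all tested genes was -0.00454 and -0.0134. These comparisons share no library.

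Thbs4, whose protein is a pentamer of tendon, muscle and stressed myocardium, was at 226, 238 and 253 CPM (lowest, median and highest library) in TAC/Benzene and at 11.8, 13.7 and 22.4 CPM in Sham/Benzene. In air it was at 207, 229 and 248 CPM in TAC/Air and at 10.4, 13.1 and 19.9 CPM in Sham/Air. The lowest TAC library thus held 10.1 times the level of the highest sham library in benzene and 10.4 times in air. Among all genes 7.62% were higher without overlap between the groups in benzene and 5.78% in air, and 6.31% and 3.71% were lower without overlap. The log2 fold change was 3.99 ± 0.14 in benzene (adjusted p = 8.50e-17) and 4.07 ± 0.14 in air (adjusted p = 6.83e-17), which is 15.9-fold and 16.8-fold. By p-value Thbs4 ranked 1 of 13571 genes in benzene and 3 in air.

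Comp, whose protein organizes collagen fibrils in cartilage and tendon, was at 146, 163 and 173 CPM in TAC/Benzene and at 8.51, 14.8 and 24.4 CPM in Sham/Benzene. In air it was at 148, 186 and 214.9 CPM in TAC/Air and at 3.41, 8.99 and 13.1 CPM in Sham/Air. The groups did not overlap under either exposure, with a gap of 5.98-fold in benzene and 11.2-fold in air between the nearest libraries. Of all genes 7.62% were higher without overlap in benzene and 5.78% in air. The log2 fold change was 3.42 ± 0.23 in benzene (adjusted p = 1.22e-11) and 4.35 ± 0.24 in air (adjusted p = 4.48e-13). The sham level rested on few reads, between 92 and 356 counts per library in Sham/Benzene and between 12 and 163 in Sham/Air, and it had a coefficient of variation of 37.5% in Sham/Benzene and 42.9% in Sham/Air.

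Thbs3, a pentameric member known in mice for a role in skeletal growth, had the lowest mean level per length of the family in each of the 4 groups. It was at 14.6, 17.7 and 19.3 CPM in TAC/Benzene and at 6.91, 8.27 and 10.8 CPM in Sham/Benzene. In air it was at 12.5, 15.6 and 18.8 CPM in TAC/Air and at 2.84, 6.95 and 8.54 CPM in Sham/Air. Each TAC library was above every sham library of its exposure, as was so for 7.62% of all genes in benzene and 5.78% in air. The log2 fold change was 1.03 ± 0.15 in benzene (adjusted p = 1.34e-05) and 1.204 ± 0.16 in air (adjusted p = 3.42e-06). In the GENCODE vM21 annotation Thbs3 lies on chromosome 3 over the gene Mtx1 on the opposite strand, and 6.59% of its exon bases are also Mtx1 exon. Whether the authors' counting used strand was not given in the sources used here, so some reads of the pair may not be told apart. Mtx1 itself, a mitochondrial import gene, was at 20 ± 1.81 CPM in TAC/Benzene, 18.9 ± 3.57 in TAC/Air, 20.4 ± 2.79 in Sham/Benzene and 18.5 ± 5.82 in Sham/Air, with log2 fold changes of -0.03 ± 0.17 in benzene and -0.00163 ± 0.17 in air.

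Thbs1, the trimeric member that platelets store and many stressed cells make, was at 107, 117 and 128 CPM in TAC/Benzene and at 24.3, 26.6 and 57.1 CPM in Sham/Benzene. In air it was at 117, 132 and 161 CPM in TAC/Air and at 17.6, 21.1 and 23.3 CPM in Sham/Air. The TAC and sham libraries did not overlap under either exposure, as was so in the same direction for 7.62% of all genes in benzene and 5.78% in air. Its log2 fold change was 1.90 ± 0.16 in benzene (adjusted p = 1.06e-09), which is 3.74-fold, and 2.67 ± 0.16 in air (adjusted p = 4.17e-12), which is 6.38-fold. Of its exon bases 3.42% overlap the antisense gene Gm29233. Of 7 platelet and megakaryocyte markers 4 were tested and 0 were called by edgeR in the benzene or air comparison, where 16.6% and 16.2% of all genes were called. The summed level of the 7 was 24.8 to 31.4 CPM in TAC/Benzene, 25.6 to 37.3 in TAC/Air, 26.1 to 38.0 in Sham/Benzene and 27.3 to 38.9 in Sham/Air.

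**Figure D1:**
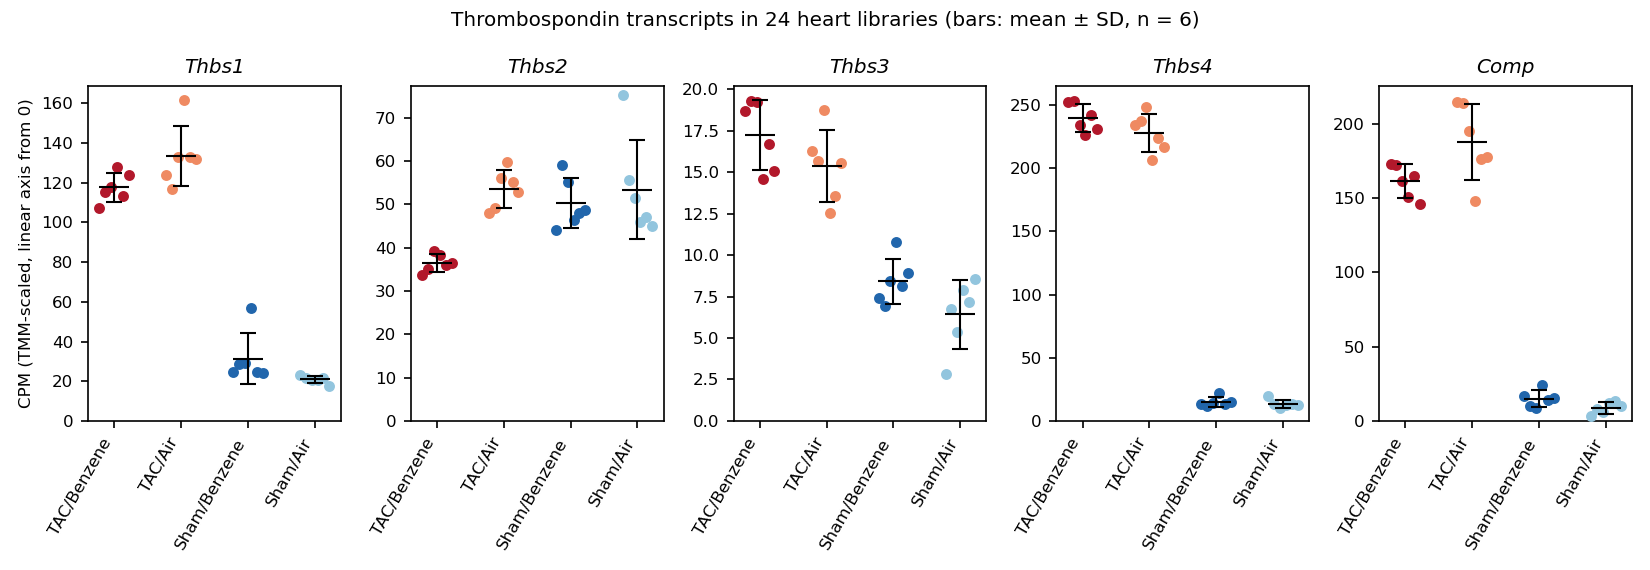
Level of each thrombospondin gene in CPM (linear axis from 0, a scale of its own for each gene) in the 6 libraries of each group, with points for libraries and black bars for the mean ± SD. Thbs1, Thbs3, Thbs4 and Comp are higher in both TAC groups than in their sham groups, and for Thbs2 the TAC/Benzene libraries, at 33.7 to 39.2 CPM, lie below all other libraries.

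Thbs2, the trimeric member made mainly by fibroblasts and known for limiting vessel growth, followed another pattern. It was at 33.7, 36.3 and 39.2 CPM in TAC/Benzene and at 44.2, 48.4 and 59.2 CPM in Sham/Benzene. In air it was at 48.1, 54.0 and 59.9 CPM in TAC/Air and at 45.1, 49.2 and 75.3 CPM in Sham/Air. All 6 TAC/Benzene libraries were below every library of the other 3 groups, while the ranges of those 3 groups overlapped one another. Thbs2 fell by 0.46 ± 0.11 on the log2 scale in TAC/Benzene against Sham/Benzene (adjusted p = 0.00269), where 7.97% of all genes were called lower and 6.31% were lower without overlap. In TAC/Air against Sham/Air its log2 fold change was 0.01 ± 0.11 and did not pass (adjusted p = 0.957), with a 95% interval of -0.21 to 0.23. So 4 members were called higher and 1 lower by TAC in benzene, and 4 were called higher and 1 did not pass in air. A fit with relative log expression size factors put that air value at -0.00213, and leaving out single libraries put it between -0.03 and 0.12.

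The benzene contrast within loaded hearts placed Thbs2 among few genes. TAC/Benzene had 36.5 ± 2.04 CPM and TAC/Air had 53.5 ± 4.44 CPM of Thbs2, and the log2 fold change was -0.55 ± 0.11 (adjusted p = 0.00963, edgeR), which is 1.47-fold lower in TAC/Benzene. The groups did not overlap, as was so in the same direction for 1.21% of all genes and in the other direction for 1.5%. In this contrast 0.582% of all genes were called, 0.295% higher and 0.287% lower, and Thbs2 ranked 34 by p-value. The call held when any single library was left out, with adjusted p between 8.26e-05 and 0.0338. Thbs2 has the lowest GC content of the family, 48.4% of its longest coding transcript, and its deviations from the group means had a Pearson correlation of -0.679 with each library's GC trend over 24 libraries. With offsets for GC content and length, an alternative chosen after seeing the data, its log2 fold change was -0.54 (adjusted p = 2.27e-05).

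The other 4 members did not pass in this contrast. Comp was at 162 ± 11.2 CPM in TAC/Benzene and 188 ± 25.7 in TAC/Air, with a 95% interval of the log2 difference from -0.63 to 0.20. Thbs1 was at 118 ± 7.38 CPM in TAC/Benzene and 133 ± 15.2 in TAC/Air, with an interval from -0.49 to 0.13. For Thbs4, at 239.7 ± 11.2 CPM in TAC/Benzene and 228 ± 15.04 in TAC/Air, the interval was -0.18 to 0.32, and for Thbs3, at 17.3 ± 2.10 CPM in TAC/Benzene and 15.4 ± 2.17 in TAC/Air, it was -0.13 to 0.46. A p that misses the threshold does not show that the levels are equal.

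In hearts without overload, 0 of the 5 members were called between Sham/Benzene and Sham/Air, where 0.0221% of all genes were called, 0.00737% higher and 0.0147% lower. At an unadjusted p under 0.05 there were 3, Thbs1, Thbs3 and Comp, where 777 of the 13571 genes were under it, and DESeq2 and limma-voom called 0. Thbs1 was at 31.3 ± 12.8 CPM in Sham/Benzene and 20.9 ± 1.88 in Sham/Air, with a log2 fold change of 0.59 ± 0.16 (adjusted p = 0.345). All 6 Sham/Benzene libraries were above all 6 Sham/Air libraries in Thbs1, by 1.04-fold between the nearest, which held for 0.162% of all genes, against 0.118% in the other direction. Comp was at 14.97 ± 5.62 CPM in Sham/Benzene and 8.78 ± 3.77 in Sham/Air (0.71 ± 0.23, adjusted p = 0.597), and Thbs3 was at 8.42 ± 1.35 CPM in Sham/Benzene and 6.42 ± 2.06 in Sham/Air (0.34 ± 0.16, adjusted p = 0.819). For Thbs2 the value was -0.08 ± 0.11 and for Thbs4 0.15 ± 0.14.

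Sham/Benzene replicate 4 weighed on these values. It held 57.1 CPM of Thbs1 where the next library of its group held 29.0, and it was also highest of its group in Thbs3 at 10.8 CPM (next 8.94), Thbs4 at 22.4 (next 15.1) and Comp at 24.4 (next 17.1). The same library led its group in 11 of the 12 tested immediate early and heat shock genes, among them Egr1 at 57.6 CPM (next 25.3), Jun at 134 (next 93.9) and Hspa1b at 219 (next 30.4), and the 13 listed genes summed to 838 CPM there against a group median of 276. Without it the Sham/Benzene against Sham/Air value of Thbs1 was 0.33, that of Comp 0.51 and that of Thbs4 -0.000477, and the TAC/Benzene against Sham/Benzene value of Thbs1 was 2.17. The part of these genes in the Thbs1 level was not tested.

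Whether benzene altered the response to TAC was tested as the interaction, the log2 fold change of TAC in benzene minus that in air. None of the 5 members passed, at a background of 0.169% of genes called (0.0663% higher and 0.103% lower), and 3 had an unadjusted p under 0.05, as had 637 of the 13571 genes. The value was -0.92 ± 0.30 for Comp (adjusted p = 0.56), -0.77 ± 0.22 for Thbs1 (adjusted p = 0.324) and -0.47 ± 0.15 for Thbs2 (adjusted p = 0.501). For Thbs3 it was -0.17 ± 0.22 and for Thbs4 -0.08 ± 0.18. DESeq2 called 0 members. Limma-voom called Thbs2 (adjusted p = 0.00117), and so did edgeR without Sham/Air replicate 1, the shallow library with the highest Thbs2, at -0.59 (adjusted p = 0.0091). The GC content and length offsets called Thbs2 at -0.51 (adjusted p = 0.0109) and Comp at -0.89 (adjusted p = 0.00819). Over all alternatives the interaction of Thbs1 and of Comp stayed negative (-0.51 for Thbs1 and -0.72 for Comp without Sham/Benzene replicate 4), and each benzene-minus-air difference of TAC effects for them combined a higher mean in Sham/Benzene than in Sham/Air with a lower mean in TAC/Benzene than in TAC/Air.

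**Figure D2:**
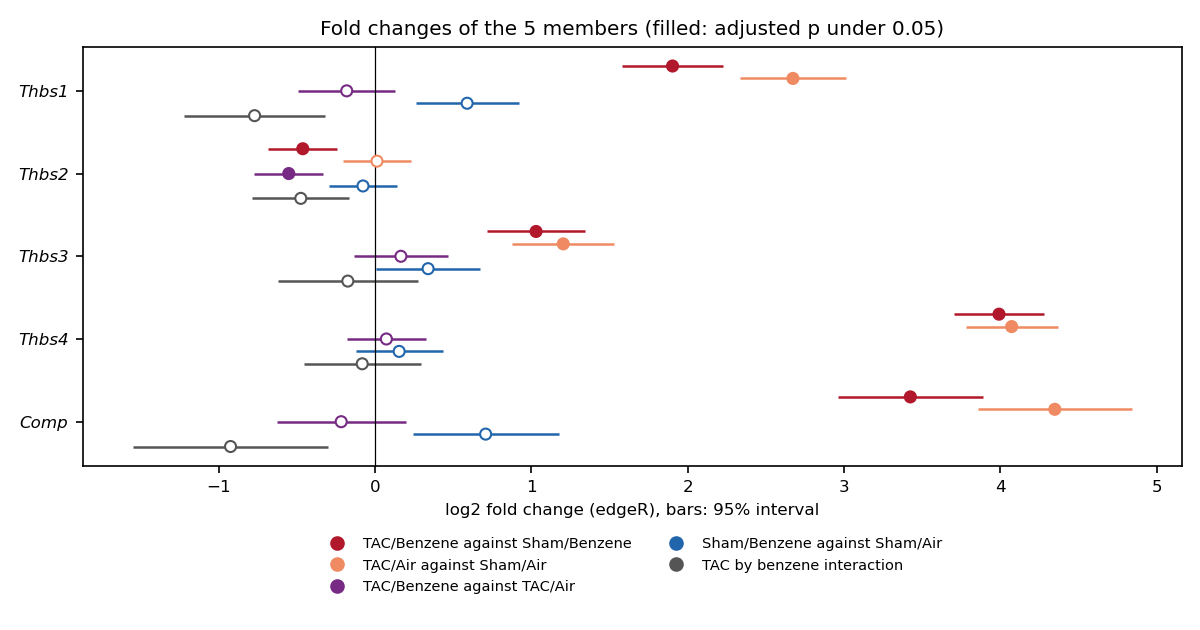
Log2 fold change of each member in 5 contrasts, with bars for the 95% interval of edgeR's estimate and filled points for an adjusted p under 0.05. TAC values reach 4.35 for Comp in air and 3.99 for Thbs4 in benzene, and in the benzene contrast of TAC hearts the filled point is that of Thbs2, at -0.55.

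The changes with TAC differed in size between members. For each of the 10 pairs the log2 ratio of the 2 levels was compared between TAC and sham under each exposure with a two-sided exact permutation test over 6 against 6 libraries, whose smallest possible p is 0.00216, adjusted over 20 tests. The ratio changed for all 10 pairs in benzene and for 9 of 10 in air. Among the 10 pairs are those with Thbs2, which was not called higher under either exposure. The pair that did not pass in air was Thbs4 and Comp, where the log2 ratio was 0.29 ± 0.13 in TAC/Air and 0.74 ± 0.92 in Sham/Air (adjusted p = 0.264). In benzene the ratio of Thbs4 to Comp was 0.57 ± 0.05 in TAC/Benzene and 0.05 ± 0.37 in Sham/Benzene, a difference of 0.52 (exact permutation test, adjusted p = 0.016). Thbs1 relative to Thbs2, within the trimeric subgroup, was at 1.68 ± 0.06 in TAC/Benzene and -0.75 ± 0.52 in Sham/Benzene (exact permutation test, adjusted p = 0.00255). In air that log2 ratio was 1.31 ± 0.07 in TAC/Air and -1.32 ± 0.20 in Sham/Air (exact permutation test, adjusted p = 0.00255). By group means Thbs1 was the higher of the pair in both TAC groups and Thbs2 the higher in both sham groups, with the exception of Sham/Benzene replicate 4, which held 57.1 CPM of Thbs1 and 46.3 of Thbs2. Their transcripts have almost the same length, 5.85 kb for Thbs1 and 5.89 kb for Thbs2.

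Per length of transcript the make-up of the family turned over. Levels were divided by the length of the longest coding transcript, 5.85 kb for Thbs1, 5.89 for Thbs2, 3.19 for Thbs3, 3.20 for Thbs4 and 2.42 for Comp. The summed level was 174 ± 7.21 CPM per kb in TAC/Benzene, 186 ± 12.5 in TAC/Air, 27.4 ± 5.25 in Sham/Benzene and 22.6 ± 1.92 in Sham/Air. Thbs4 held 43.2% ± 0.61 of that sum in TAC/Benzene and 38.4% ± 0.81 in TAC/Air, against 17.0% ± 1.34 in Sham/Benzene and 18.9% ± 2.90 in Sham/Air. Comp held 38.5% ± 1.15 in TAC/Benzene and 41.7% ± 3.24 in TAC/Air, against 22.2% ± 5.50 in Sham/Benzene and 16.2% ± 6.72 in Sham/Air. The share of Thbs2 was the reverse, 3.58% ± 0.31 in TAC/Benzene and 4.93% ± 0.70 in TAC/Air, against 32.0% ± 6.82 in Sham/Benzene and 40.0% ± 6.64 in Sham/Air. Thbs1 held 11.6% ± 1.18 in TAC/Benzene, 12.4% ± 2.24 in TAC/Air, 19.0% ± 3.64 in Sham/Benzene and 15.9% ± 1.32 in Sham/Air.

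Per length, Thbs4 or Comp led the family in the TAC groups and Thbs2 in both sham groups. In TAC/Benzene the order was Thbs4 at 74.95 ± 3.498 CPM per kb, Comp at 66.9 ± 4.65, Thbs1 at 20.1 ± 1.26, Thbs2 at 6.20 ± 0.35 and Thbs3 at 5.41 ± 0.66. In TAC/Air it was Comp at 77.7 ± 10.6, Thbs4 at 71.3 ± 4.70, Thbs1 at 22.8 ± 2.59, Thbs2 at 9.08 ± 0.75 and Thbs3 at 4.82 ± 0.68. Thbs4 and Comp overlapped in both TAC groups, and so did Thbs2 and Thbs3 in TAC/Benzene. In Sham/Benzene, Thbs2 led at 8.53 ± 0.98 CPM per kb, followed by Comp at 6.20 ± 2.33, Thbs1 at 5.36 ± 2.19, Thbs4 at 4.69 ± 1.18 and Thbs3 at 2.64 ± 0.42, and neighbours in this order overlapped except for Thbs4 and Thbs3. In Sham/Air, Thbs2 led at 9.06 ± 1.94 CPM per kb, followed by Thbs4 at 4.30 ± 1.01, Comp at 3.63 ± 1.56, Thbs1 at 3.58 ± 0.32 and Thbs3 at 2.01 ± 0.65, and the ranges of Thbs4, Comp and Thbs1 overlapped. The longest identical stretch between any pair of member transcripts was 26 bases, against reads of 150 bases.

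**Figure D3:**
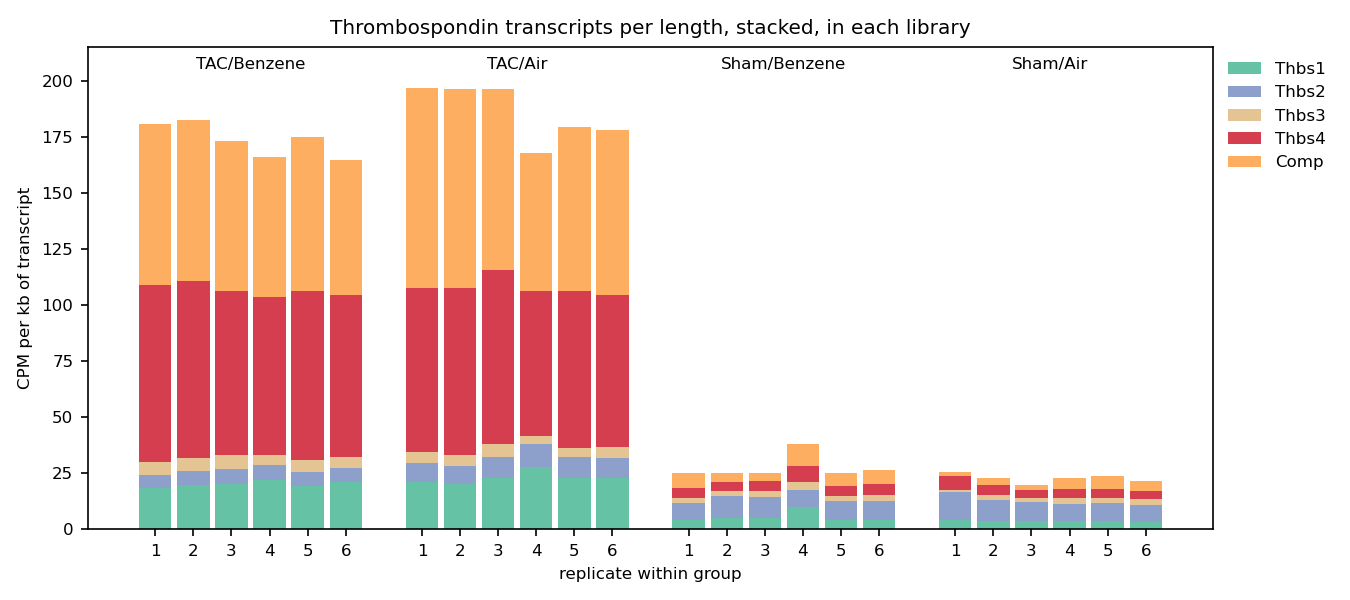
Level per kb of transcript of the 5 thrombospondin genes, stacked for each library, with 6 libraries per group and a linear axis from 0. The family total is 165 to 182 CPM per kb in TAC/Benzene and 168 to 197 in TAC/Air, against 24.9 to 38.1 in Sham/Benzene and 19.6 to 25.3 in Sham/Air, and Thbs4 and Comp fill most of the TAC bars.

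The bases around the annotated starts of Thbs4 and Thbs2, the most raised and the lowered member in TAC/Benzene, are shown to set their promoters side by side. RefSeq windows on GRCm38.p6, from 250 bases before to 50 after the start, matched 3 of the 5 members, Thbs2, Thbs3 and Thbs4. Capitals mark matches on either strand to TGANTCA (AP-1), GGAATG (TEAD, read as CATTCC on the other strand), CAGAC (SMAD, read as GTCTG) or the CArG box of serum response factor. The Thbs4 window is chr13:92794769-92795068 and the Thbs2 window chr17:14694213-14694512, both on the minus strand and printed 5′ to 3′ along the gene.
Thbs4: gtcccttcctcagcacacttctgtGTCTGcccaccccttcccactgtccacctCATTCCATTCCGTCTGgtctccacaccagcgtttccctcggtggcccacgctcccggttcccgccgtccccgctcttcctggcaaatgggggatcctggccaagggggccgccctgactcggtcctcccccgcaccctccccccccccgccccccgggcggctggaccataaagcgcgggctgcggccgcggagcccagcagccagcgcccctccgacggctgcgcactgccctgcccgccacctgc
Thbs2: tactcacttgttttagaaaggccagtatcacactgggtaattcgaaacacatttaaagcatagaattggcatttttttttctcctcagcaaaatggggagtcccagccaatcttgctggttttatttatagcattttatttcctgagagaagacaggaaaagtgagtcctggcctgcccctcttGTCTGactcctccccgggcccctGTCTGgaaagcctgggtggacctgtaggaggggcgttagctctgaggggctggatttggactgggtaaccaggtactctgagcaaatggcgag
Thbs4 held 2 TEAD matches, overlapping by 1 base, at -197 and -192 from the start, where 14.7% of all 32851 windows held at least 1 and 1.36% at least 2, and 2 SMAD matches at -226 and -186. Thbs2 held no TEAD match and 2 SMAD matches, at -66 and -43. SMAD letters were common, in 49.6% of windows with 1 or more and 16.2% with 2 or more. Neither window held an AP-1 match, found in 7.81% of windows, or a CArG box, found in 1.63%, and Thbs3 held none of the 4 motifs.

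Over all 12 libraries of a surgery, some correlations between members differed between TAC and sham hearts, and the difference was not tested. In the 12 TAC libraries Thbs3 and Thbs4 had a Pearson r of 0.855 (permutation test, adjusted p = 0.0039) and a Spearman rho of 0.839 (adjusted p = 0.0116, permutation test), over 20 correlations computed for 10 pairs in TAC and in sham libraries. The r was 0.758 within TAC/Benzene, 0.869 within TAC/Air, and 0.727 without the 2 libraries farthest from the median of Thbs3. In the 12 sham libraries the same pair had r = -0.0723 (permutation test, adjusted p = 0.835), with 0.954 within Sham/Benzene and -0.712 within Sham/Air. Without the 2 sham libraries farthest from the median of Thbs3 it was 0.783, beside 0.727 in TAC, so the pooled sham value rested on those 2. Thbs1 and Thbs4 had a negative relation in TAC libraries, with r = -0.813 (permutation test, adjusted p = 0.00565), rho = -0.741 (adjusted p = 0.0542, permutation test), -0.878 within TAC/Benzene, -0.722 within TAC/Air and -0.559 without the 2 farthest libraries. In sham libraries that pair had a positive r of 0.676, which did not pass (permutation test, adjusted p = 0.0675), with 0.863 within Sham/Benzene, 0.607 within Sham/Air and 0.106 without the 2 farthest libraries. Thbs1 did not overlap between Sham/Benzene and Sham/Air, which also enters that pooled r. In the 12 sham libraries Thbs3 and Comp had r = 0.872 (permutation test, adjusted p = 0.0034), rho = 0.685 (adjusted p = 0.0867, permutation test), 0.611 within Sham/Benzene, 0.927 within Sham/Air and 0.621 without the 2 farthest libraries, against r = 0.299 in TAC libraries (permutation test, adjusted p = 0.457). Over the 24 deviations from group means the libraries' GC trend had an r of 0.765 with Thbs3 and 0.738 with Comp. Their transcripts are 56.0% and 59.9% GC. The r was 0.153 with Thbs4 and -0.107 with Thbs1, over sham and TAC libraries together. TAC/Air replicates 1 to 3, with GC trends of 0.556 to 0.623, held 234 to 248 CPM of Thbs4 and 117 to 133 of Thbs1. TAC/Air replicates 4 to 6, at -0.692 to -0.375, held 207 to 224 and 132 to 161 CPM. In Sham/Air the library with the lowest trend, replicate 1 at -0.761, held the highest Thbs4, 19.9 CPM. The part of the GC trend in the relations was not tested. Thbs4 and Comp had r = 0.919 within TAC/Benzene and 0.842 within TAC/Air, and 0.372 over both groups (permutation test, adjusted p = 0.362). Thbs1 and Comp had -0.879 within TAC/Benzene and -0.941 within TAC/Air, each over 6 libraries. Comp was at 195 to 214.9 CPM in TAC/Air replicates 1 to 3 and at 148 to 178 in replicates 4 to 6. The GC trend divided these libraries in the same way, and its part in the values within groups was not tested. Pairs with Thbs2 get no pooled value in TAC hearts, since its TAC/Benzene and TAC/Air libraries form separate clusters, and its r with Thbs1 was 0.739 within TAC/Benzene and 0.890 within TAC/Air.

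By the likeness of log2 CPM over all 24 libraries among 12449 named genes whose mean reached 1 CPM, Thbs4 was most like Myh7 (Pearson r = 0.996), Ccn2 (0.992), Emp1 (0.992), Col12a1 (0.991) and Col1a2 (0.990). Among the genes most like Comp were Fmod (0.991), Ltbp2 (0.987), Serpinf1 (0.987) and Mmp2 (0.986). Thbs1 was most like Col12a1 (0.988), Pamr1 (0.982), Prelp (0.979), Col1a2 (0.978) and Ccn2 (0.977), and Thbs3 most like Col5a1 (0.981), Fbln2 (0.980), Mafk (0.972), Lrp1 (0.970) and Ankrd23 (0.968). The TAC and sham libraries form separate clusters for these 4 members, so these values mainly restate that contrast. Thbs2 had lower likeness values, led by Iigp1 (0.872), Negr1 (0.866), C3 (0.856), Tgtp2 (0.842) and Hnrnpk (0.837). Its TAC/Benzene libraries lie below all others, which also enters these values. Over the deviations from group means the closest gene was Col12a1 for Thbs1 (0.767), Fam210a for Thbs2 (0.941), Shank3 for Thbs3 (0.964), Ywhah for Thbs4 (0.878) and Cebpb for Comp (0.917). The deviations of Thbs2, Thbs3 and Comp had an r of -0.679, 0.765 and 0.738 with the libraries' GC trend. The part of that trend in these likeness values was not tested.

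Genes that bind thrombospondins were read from lists chosen by knowledge of the proteins. Of 19 receptors and cell surface partners, all tested, 4 were higher and 15 did not pass in TAC/Benzene against Sham/Benzene (median log2 fold change 0.06), and 6 were higher and 13 did not pass in TAC/Air against Sham/Air (median 0.21). Over all genes, 8.67% were called higher and 7.97% lower in benzene, and 8.81% higher and 7.35% lower in air. Lrp8, a lipoprotein receptor family member that binds thrombospondin 1, rose by 3.125 ± 0.19 in benzene (adjusted p = 1.89e-12) and 3.30 ± 0.21 in air (adjusted p = 1.00e-11). Its level was 8.37 CPM in TAC/Benzene and 6.61 in TAC/Air, against 0.943 in Sham/Benzene and 0.609 in Sham/Air. Lrp1, the endocytic receptor that clears thrombospondins, was at 0.69 ± 0.14 in benzene and 0.89 ± 0.14 in air, the integrin subunit gene Itgb3 at 0.65 ± 0.18 and 0.69 ± 0.19, and the heparan sulfate proteoglycan gene Sdc1 at 0.42 ± 0.14 and 0.85 ± 0.15, all called under both exposures. The receptor genes Cd36 and Cd47 were among those that did not pass.

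Most matrix partners, growth factors and proteases on the list were called higher with TAC. Of 22 listed genes 20 were tested, with 13 higher, 1 lower and 6 not passing in benzene (median 1.10) and 14 higher, 1 lower and 5 not passing in air (median 1.30). The shares of all genes were 8.67% higher and 7.97% lower in benzene, and 8.81% and 7.35% in air. Fn1, which encodes fibronectin, was at 1.57 ± 0.08 in benzene and 1.68 ± 0.08 in air, and the collagen gene Col1a2 at 1.31 ± 0.07 and 1.54 ± 0.07. The collagen crosslinking enzyme gene Lox was at 3.27 ± 0.19 in benzene and 2.95 ± 0.20 in air, and Tgfb2, a ligand made as a latent complex, at 1.885 ± 0.14 and 1.46 ± 0.14. Adamts7, which encodes a protease that cleaves COMP, was lower, at -0.73 ± 0.17 in benzene (adjusted p = 0.00234) and -0.69 ± 0.17 in air (adjusted p = 0.00502). Of the other proteases of its family on the list, Adamts4 was called higher, at 2.02 ± 0.31 in benzene (adjusted p = 2.32e-05) and 1.18 ± 0.30 in air (adjusted p = 0.00715), as was Adamts1, at 0.34 ± 0.09 and 0.32 ± 0.09, and Adamts12 did not pass in either. In TAC/Benzene against TAC/Air the gelatinase gene Mmp9 was the 1 called gene of the list, at 3.04 CPM in TAC/Benzene and 1.43 CPM in TAC/Air (1.07 ± 0.24, adjusted p = 0.0313).

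Of 17 listed and tested genes of ATF6 signalling and endoplasmic reticulum folding, 0 were higher, 1 was lower and 16 did not pass in each of the benzene and air comparisons, with medians of 0.03 and 0.00316. With 8.67% of all genes called higher and 7.97% lower in benzene, and 8.81% and 7.35% in air, counts this small in a list of this size are near the background. The called gene was Herpud1, a component of the degradation machinery, at -0.38 ± 0.09 in benzene (adjusted p = 0.0046) and -0.47 ± 0.09 in air (adjusted p = 0.000713). Among 35 other genes for proteins with thrombospondin type 1 repeats 26 were tested, with 10 higher, 3 lower and 13 not passing in benzene (median 0.31) and 10 higher, 1 lower and 15 not passing in air (median 0.32). Cilp, a matrix protein gene of cartilage and heart fibroblasts, was at 408 CPM in TAC/Benzene and 422 in TAC/Air, against 35.4 in Sham/Benzene and 28.2 in Sham/Air. The spondin gene Spon1 was called lower, at -0.22 ± 0.07 in benzene (adjusted p = 0.0418) and -0.27 ± 0.07 in air (adjusted p = 0.0112).

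**Figure D4:**
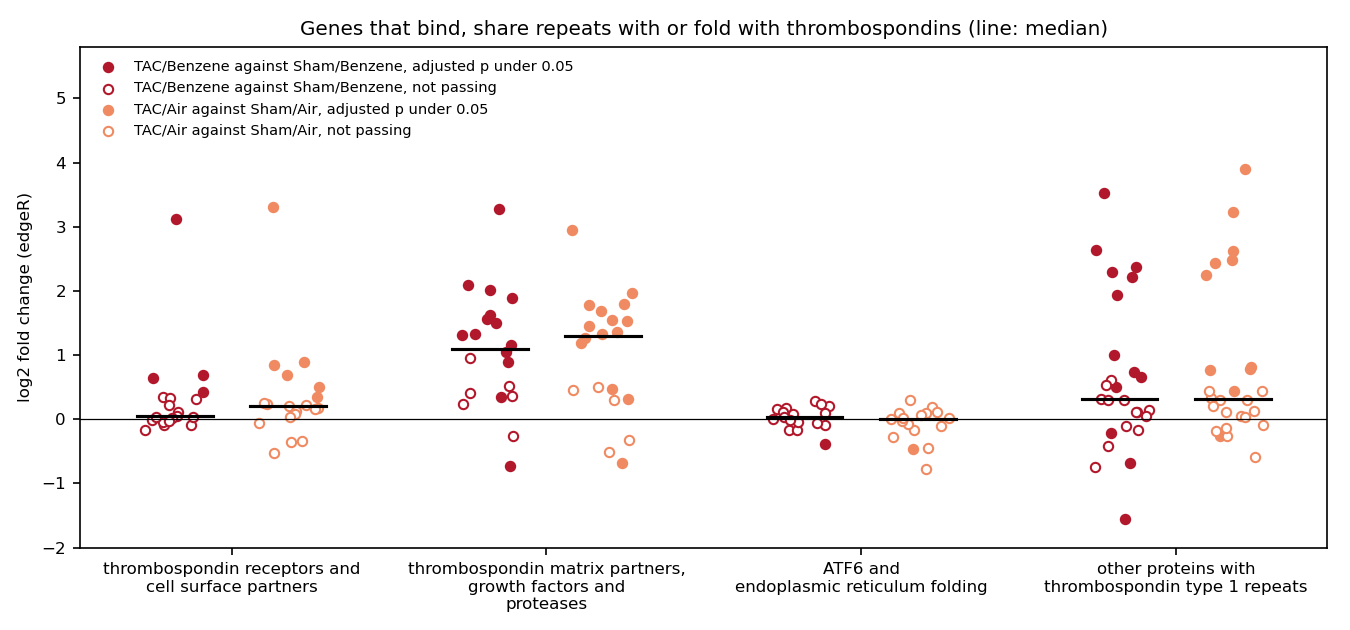
Log2 fold change of each tested gene in 4 lists of thrombospondin-related genes, for TAC/Benzene against Sham/Benzene and TAC/Air against Sham/Air, with filled points for an adjusted p under 0.05 and a black line at each list's median. The matrix partner list sits highest, at medians of 1.10 and 1.30, and the endoplasmic reticulum list lies around 0.

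Of 6 activated fibroblast markers 4 were higher and 2 did not pass under both exposures, where 8.67% of all genes were higher in benzene and 8.81% in air. The summed level of the 6 was 1271 to 1416 CPM in TAC/Benzene and 1154 to 1302 in TAC/Air, against 232 to 327 in Sham/Benzene and 224 to 379 in Sham/Air. Most of the TAC sums was the matricellular gene Postn, at 1120 CPM in TAC/Benzene and 979 in TAC/Air, with a log2 fold change of 3.58 ± 0.22 in benzene and 3.17 ± 0.21 in air. Acta2 and Fap were the 2 that did not pass, with Acta2 at 120 CPM in TAC/Benzene and 135 in TAC/Air, against 140 in Sham/Benzene and 122 in Sham/Air. Of 13 cartilage and tendon markers, relevant to Comp and Thbs4, 9 were tested, with 6 higher and 3 lower in benzene and 7 higher, 1 lower and 1 not passing in air. Their sum was 162 to 184 CPM in TAC/Benzene and 147 to 201 in TAC/Air, against 51.0 to 92.3 in Sham/Benzene and 41.8 to 56.5 in Sham/Air. Within the list the members differed. Most of the TAC sums was Fmod and Prg4, both higher with TAC. Cnmd was at 0.856 CPM in TAC/Benzene and 1.41 in TAC/Air, against 4.26 in Sham/Benzene and 4.23 in Sham/Air. Chad was at 2.06 CPM in TAC/Benzene, 6.23 in TAC/Air, 4.36 in Sham/Benzene and 2.04 in Sham/Air. It was the 1 gene of the list called in TAC/Benzene against TAC/Air, at -1.60 ± 0.24 (edgeR, adjusted p = 0.000535). The transcription factor gene Sox9 was at 11.8 CPM in TAC/Benzene and 11.1 in TAC/Air, against 5.54 in Sham/Benzene and 3.67 in Sham/Air, and the aggrecan gene Acan at 1.58 and 1.15 CPM in TAC/Benzene and TAC/Air, against 0.369 in Sham/Benzene and 0.226 in Sham/Air, both called higher under both exposures. Other cartilage genes were at or near 0: Col2a1 had a mean of 0.101 CPM in TAC/Benzene and 0.316 in TAC/Air, and Matn1 0.0589 and 0.026, while Matn1 and Matn3 had no count in either sham group. Beside the lower Thbs2 of TAC/Benzene against TAC/Air, 0 of 6 resting fibroblast markers were called, where 0.582% of all genes were. Their median was -0.23, and their sum was 1941 to 2099 CPM in TAC/Benzene and 2168 to 2552 in TAC/Air, without overlap. Most of that sum was Gsn, at 1730 CPM in TAC/Benzene and 2027 in TAC/Air, while Tcf21 was at 11.5 CPM in TAC/Benzene and 11.6 in TAC/Air and Ddr2 at 57.2 and 59.6 in those groups. Pdgfrl was at 13.6 ± 0.78 CPM in TAC/Benzene and 18.2 ± 1.25 in TAC/Air. Dpt was at 138 ± 3.4 and 161 ± 6.8 in those groups, and Pdgfra at 67.8 ± 5.2 and 79.4 ± 10.6. Of 5 macrophage markers 1, Adgre1, was lower in that contrast, at -0.46 ± 0.09 (adjusted p = 0.00925), and the sum of the 5 was 109 to 119 CPM in TAC/Benzene and 138 to 163 in TAC/Air. The next counts are of few genes, where 16.6% of all genes were called in benzene and 16.2% in air. Of 5 endothelial markers 1 was higher in benzene and 0 in air, of 5 smooth muscle and pericyte markers 1 was lower in benzene and 1 higher and 1 lower in air, and of 3 atrial markers 3 were lower in benzene and 0 called in air. The atrial sum was 30.6 to 216 CPM in Sham/Benzene and 36.4 to 75.05 in Sham/Air. Of 4 lung epithelium markers 2 were tested, with 1 lower in benzene, 2 lower in air and 2 lower in Sham/Benzene against Sham/Air. Those 2, Scgb1a1 and Sftpc, were the genes called lower in that last contrast. The lung sum was 0.177 to 0.653 CPM in TAC/Benzene, 0 to 0.642 in TAC/Air, 0.277 to 2.07 in Sham/Benzene and 6.82 to 10.3 in Sham/Air. Of 12 tested immediate early and heat shock genes 6 were higher and 3 lower in benzene and 7 were higher in air. The part of these cell populations in the thrombospondin levels was not tested.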

How the data were processed

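Counts per gene symbol for 24 libraries were used as the authors deposited them, as whole numbers without normalization. Tools named in the submitters' processing notes are STAR, FastQC 0.11.9 and DESeq2, with mm9 as build; the sources used here do not give the counting program, its annotation or its strand option. The table has 25229 symbols, of which 5678 had no count. With edgeR 4.0.16 in R 4.3.3, genes were kept by its expression filter (minimum count 10, minimum total 15), which left 13571 genes and dropped 0.0747% of counts. Library sizes were scaled by TMM, and 1 robust quasi-likelihood model with a term for each group covered the 24 libraries. SE was the log2 fold change over the root of F, and 95% intervals from the t distribution with edgeR's total degrees of freedom. Log2 CPM used a prior count of 2. The fit was tested on simulated data. Groups and replicate numbers came from the sample titles, and no pair of libraries had identical counts.

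Transcript lengths and GC content came from GENCODE vM21, which is on another build than mm9. Positions are given only for RefSeq promoter windows, on GRCm38.p6, which is also another build than mm9. A symbol match was found for 96.6% of symbols. Lists and motifs are descriptions, with no list test. The members and lists were chosen with earlier results of these data known. Named genes are the members, the 5 most alike genes of each, and up to 4 called genes per list with the smallest p; genes outside this rule are Mtx1, Cd36, Cd47, Adamts1, Adamts4, Adamts7, Adamts12, Spon1, Tgfb2 in air and the single marker genes, chosen after their values were seen. One of the alike genes is not reported here. Protein sequences were not used here.

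Same-numbered libraries were checked for pairing by correlating their deviations from group means over 6 pairs per comparison. Over 0.1 were 5 of 6 pairs in TAC/Benzene against TAC/Air, 4 of 6 in Sham/Benzene against Sham/Air and 0 in each TAC comparison with sham. In no comparison did every pair exceed 0.1, and the main fit did not treat the numbers as pairs. A link between libraries of one number was thus not excluded. Alternatives were DESeq2 1.42.0, limma-voom (limma 3.58.1), relative log expression factors, other low-count filters, a fit of only the groups compared, a replicate block, each library left out, and, chosen after seeing the data, GC and length offsets (loess span 0.5, fitted on genes averaging 50 counts or more), also on 23 libraries.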

Additional observations from a re-analysis of the deposited data

Results flagged for a closer look

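A library was marked where its gap to the next one, divided by the range of its 6 libraries, exceeded Dixon's 95% critical value. This was applied to 5 genes in 4 groups, and chance marks about 1 group in 20. Sham/Benzene replicate 4 was marked for Thbs1, at 57.1 CPM (next 29.0), and for Thbs4, at 22.4 CPM (next 15.1). Sham/Air replicate 1, the library with the fewest counts, was marked for Thbs2, at 75.3 CPM (next 55.6), and for Thbs4, at 19.9 CPM (next 13.7). TAC/Air replicate 4 was marked for Thbs1, at 161 CPM (next 133). Without Sham/Benzene replicate 4 the TAC/Benzene against Sham/Benzene value of Thbs4 was 4.14 and remained called, and without Sham/Air replicate 1 the TAC/Air against Sham/Air value of Thbs4 was 4.17. Without TAC/Air replicate 4 the value of Thbs1 in air was 2.61. No cause of these values was tested.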

How the results depend on the processing

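The calls of Thbs1, Thbs3, Thbs4 and Comp as higher with TAC under both exposures, and of Thbs2 as lower in TAC/Benzene against both Sham/Benzene and TAC/Air, held under every alternative and with each library left out. Of the 820 alternative values of members over all contrasts and settings, 11 changed sign and 8 gained a call, and none lost one. All 240 left-out-library values and 20 prior-count values of the pair ratios, and all 140 recomputed group means, kept their direction or moved by less than 1 SD. The changes of sign were of uncalled values near 0: Thbs2 in TAC/Air against Sham/Air at -0.00213 with relative log expression factors (-0.0307 to 0.122 with libraries left out), and Thbs2 in Sham/Benzene against Sham/Air at 0.031 with limma-voom and 0.0255 with GC offsets on 23 libraries (-0.129 to 0.0379). Thbs4 ran from -0.000477 to 0.261 in Sham/Benzene against Sham/Air and from -0.187 to 0.0733 in the interaction. Gained calls were the interaction of Thbs2 at -0.583 with limma-voom, -0.506 with GC offsets and -0.566 with GC offsets on 23 libraries (-0.588 to -0.423 with libraries left out), the interaction of Comp at -0.891 and -0.913 with those offsets, and Comp at 0.606 in Sham/Benzene against Sham/Air and -0.307 in TAC/Benzene against TAC/Air with offsets on 23 libraries. The cause was not tested.

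Counts of called genes moved more. For TAC/Air against Sham/Air, 2193 were called (1195 higher, 998 lower), 3739 with limma-voom, 1300 with only the groups compared, 3732 with GC offsets (1596 higher, 2136 lower) and 4341 on 23 libraries (1906 higher, 2435 lower), and 1911 to 3171 with a library left out. For TAC/Benzene against Sham/Benzene, 2257 became 4497, 3415, 3632 and 4884 under those settings in that order, and 1918 to 3685 with a library left out. For Sham/Benzene against Sham/Air, 3 became 28 with DESeq2, 6 with limma-voom, 1 without the filter, 1 with only the groups compared, 11 and 33 with the offsets, and 1 to 5 with a library left out. For TAC/Benzene against TAC/Air, 79 became 171 with DESeq2, 556 with limma-voom, 274 with only the groups compared, 226 and 602 with the offsets, and 52 to 231. For the interaction, 23 (9 higher, 14 lower) became 57 with DESeq2, 93 with limma-voom, 53 and 177 (97 higher, 80 lower) with the offsets, and 15 to 49. The highest left-out counts of the TAC, TAC/Benzene against TAC/Air and interaction contrasts were all without Sham/Air replicate 1. The replicate block gave 46 genes in TAC/Benzene against TAC/Air and 14 in the interaction and changed no call of a member; Thbs2 was at -0.55 there (adjusted p = 0.042). Same-numbered libraries correlated at -0.588 to 0.523, and at most 3 of 6 matched their own number best. Sham levels of Comp and Thbs3, from as few as 12 and 10 counts in a library, limit the precision of their fold changes.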
